A study of Homo sapiens with 6 samples.

Results

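The AMH locus on the short arm of human chromosome 19 was described through 6 genes, AMH and 5 genes beside it (SF3A2, PLEKHJ1, JSRP1, OAZ1 and DOT1L), out of 57500 gene identifiers in the table. AMH was picked because its level was higher in cells with extra PRMT1, so its own rise is given as a description with no test. The other 5 genes were picked for their position. The libraries come from HEK293T, an established human embryonic kidney cell line, in 2 groups of 3. The PRMT1 OV group carries the genotype label PRMT1 OV and received, with the PolyJet reagent, a pcDNA3 plasmid with a PRMT1 insert, while the Mock group carries the genotype label WT and the treatment label Vector Control. The labels do not say whether Mock cells received the empty plasmid, how long after transfection RNA was taken, or whether replicates were separate cultures, so the p-values reflect library-to-library spread alone, perhaps only technical. RNA was selected by its poly(A) tail and sequenced, and values are TPM, a level scaled for gene length that adds up to 1000000 in each library.

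AMH encodes anti-Müllerian hormone, a secreted member of the TGF-beta family. In the fetal testis, Sertoli cells release it and it makes the Müllerian ducts regress, and in the ovary, granulosa cells of growing follicles release it. It binds the receptor AMHR2, which works with type I receptors of the bone morphogenetic protein group and signals through SMAD proteins. The question addressed here is whether genes beside AMH moved with it, and how the AMH level compared with that of SF3A2, which lies directly upstream on the same strand and could in principle supply readthrough transcripts.

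On GRCh38 with the GENCODE 29 annotation, AMH (ENSG00000104899) spans chromosome 19, 2249309 to 2252073, on the plus strand. SF3A2 (ENSG00000104897, 2236504 to 2248679, plus strand) ends 629 bases before AMH begins. PLEKHJ1 (ENSG00000104886, 2230084 to 2237704, minus strand) runs the other way, and its start region shares 398 exonic bases with that of SF3A2. DOT1L (ENSG00000104885, 2164149 to 2232578, plus strand) meets the end of PLEKHJ1 tail to tail, with 529 exonic bases in common. On the other side, JSRP1 (ENSG00000167476, 2252252 to 2269759, minus strand) ends 178 bases beyond the end of AMH, so the 2 genes also face each other tail to tail. OAZ1 (ENSG00000104904, 2269509 to 2273490, plus strand) shares 236 exonic bases with a noncoding JSRP1 transcript. AMH shares no exonic base with SF3A2 or JSRP1, and no GENCODE 29 transcript of either plus-strand gene joins SF3A2 to AMH. The strand setting of the counting is not given in the sources used here, so for overlaps between strands the source of a read cannot be told apart, and PLEKHJ1, JSRP1 and the shared parts of SF3A2, OAZ1 and DOT1L are uncertain to that extent.

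The stretch of 250 bases before the RefSeq start of AMH is shown because it holds the hormone gene's own start region and lies, but for its last bases inside the annotated AMH span, between SF3A2 and AMH. It covers chr19:2249073-2249322 on the plus strand (RefSeq, GRCh38.p14), and capitals mark the letters AGATAG, the core of a site for GATA factors.
AMH: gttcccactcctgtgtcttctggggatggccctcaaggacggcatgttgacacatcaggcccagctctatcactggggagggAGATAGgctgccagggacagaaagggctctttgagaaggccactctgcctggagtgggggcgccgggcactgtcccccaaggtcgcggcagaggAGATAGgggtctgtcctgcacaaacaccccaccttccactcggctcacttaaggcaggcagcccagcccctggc
AGATAG occurs at 168 and at 74 bases before the start, both on the strand of the gene. Searched on both strands, AGATAG was present in 5.66% of the 35116 promoters of the same length in the table. Another spelling of the GATA core, AGATAA, which 9.17% of promoters hold, was not found in this window. Nor was the core of a site for the orphan receptor SF-1, AAGGTCA, held by 3.44%. The letters of a SOX factor site, AACAAT, are in 8.98% of promoters and were not found either. The same holds for the TATA box, spelled TATAAA and present in 10.7%. Only these exact letters were searched, so sites spelled otherwise would have been missed. The window holds AAGGTCG, for example, which differs from AAGGTCA in its last letter. The AMH window holds 6 CG dinucleotides and is 62.8% G or C, against 29 and 68.4% in the window before SF3A2 and a median of 58.0% G or C over all promoters. Of the 6 genes, AMH, SF3A2, PLEKHJ1 and OAZ1 had an entry in that table, and JSRP1 and DOT1L had none.

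Between 19874209 and 23163922 reads per PRMT1 OV library and between 18196773 and 20424764 per Mock library could be recovered from the TPM values, as processing describes. PRMT1 itself stood at 62895 to 84923 TPM in PRMT1 OV and 368 to 397 TPM in Mock, which matches every library to its label. Of 15341 genes tested, 40.3% were higher and 8.64% lower in PRMT1 OV (limma, Benjamini-Hochberg adjusted p under 0.05), and the values of the groups did not overlap for 61.4%. Over all tested genes the log2 fold changes had a median of 0.30, a value that median-of-ratios scaling moved to -0.02, quantile normalization to 0.001 and removal of PRMT1 with rescaling to 0.40. Directions below refer to TPM as deposited unless a scaling is named. After median-of-ratios scaling 3409 of 15232 tested genes were higher and 3920 lower. Under quantile normalization 3194 of 15341 were higher and 2929 lower. Counts given below under a scaling stand beside these. All 6 HEK293T markers examined were present (KRT8, KRT18, VIM, NEFM, NEFL and PAX2). VIM, NEFM and NEFL fell, and the others did not pass the test.

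AMH had 45.9, 47.7 and 44.4 TPM in the PRMT1 OV libraries, against 5.31, 5.12 and 5.34 TPM in the Mock libraries. All 3 PRMT1 OV values lay far above all 3 Mock values, and the spread within either group was small. The means were 46.0 ± 1.61 TPM in PRMT1 OV and 5.26 ± 0.12 TPM in Mock (SD, n = 3 each), an 8.75-fold ratio and a log2 fold change of 2.91 on the log2(TPM + 1) scale. These values rest on 776, 795 and 656 reads in PRMT1 OV and 86, 79 and 81 reads in Mock, above a floor of 3 reads that corresponds to 0.177 to 0.203 TPM for this gene. AMH ranked 13 by rise among all tested genes. AMH (73.1% G or C) belongs to the 1528 tested genes richest in G and C. Of these, 25.2% were higher and 21.5% lower, with a median log2 fold change of 0.04. In bulk libraries, more cells with the transcript and more transcript per cell cannot be told apart. The counted model of AMH holds 2587 exonic bases, of which 766, or 29.6%, lie outside the 1821 bases of its coding transcript and in other annotated AMH transcripts. Gene values do not separate spliced from unspliced AMH RNA.

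**Figure D1:**
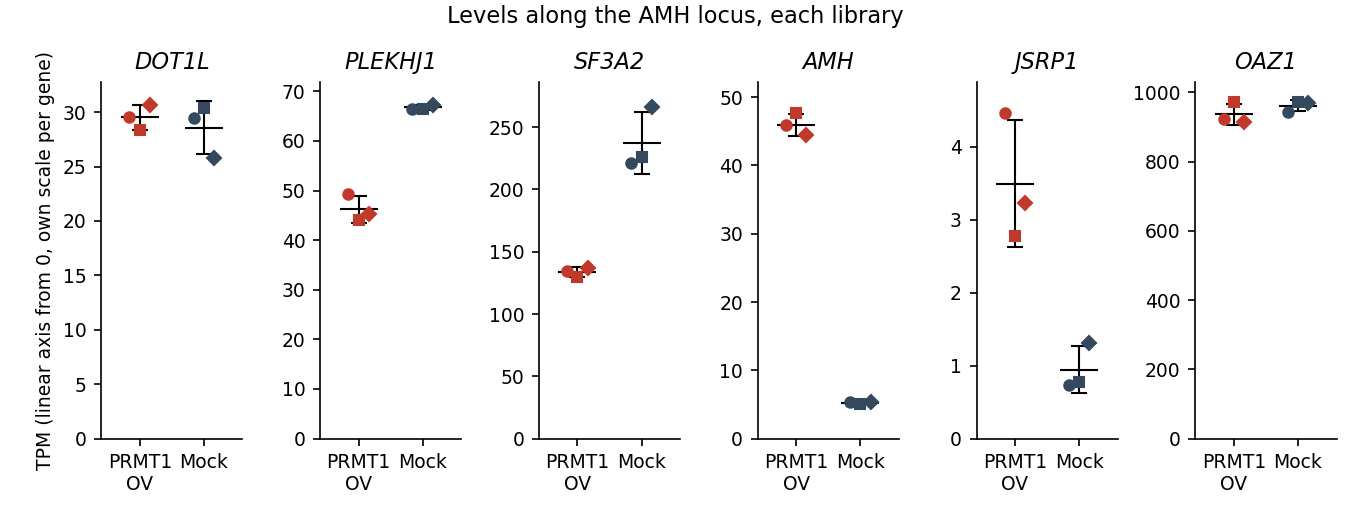
TPM of the 6 genes in each library, in their order along the chromosome, with PRMT1 OV libraries left (red) and Mock libraries right (dark); circles, squares and diamonds are replicates 1, 2 and 3, bars the mean and SD, and every axis is linear from 0. AMH and JSRP1 lie higher in PRMT1 OV, SF3A2 and PLEKHJ1 lower, and the groups overlap for DOT1L and OAZ1.

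SF3A2 encodes a subunit of the splicing complex SF3A, which helps the U2 small nuclear ribonucleoprotein settle on the branch site of introns. It had 135, 129 and 137 TPM in PRMT1 OV, against 221, 226 and 266 TPM in Mock. Every PRMT1 OV value was below every Mock value, the opposite direction to AMH. The means were 133.6 ± 3.83 TPM and 238 ± 24.8 TPM (SD, n = 3 each), and SF3A2 fell by 0.82 on the log2 scale (SE 0.08, limma adjusted p = 0.000346). PLEKHJ1, a gene for a pleckstrin homology domain protein that starts back to back with SF3A2, had 49.3, 44.0 and 45.3 TPM in PRMT1 OV, against 66.5, 66.4 and 67.3 TPM in Mock. It also fell, by 0.52 (SE 0.07, limma adjusted p = 0.00123), again without overlap between groups. The PLEKHJ1 level was 34.6 ± 1.84% of that of SF3A2 in PRMT1 OV and 28.3 ± 2.60% in Mock (SD, n = 3 each), so the pair fell by unequal amounts. Among tested genes of similar level (10 bins of equal size), 33.9% were lower in the bin of SF3A2 and 15.4% in that of PLEKHJ1.

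JSRP1 encodes a protein of the junctional sarcoplasmic reticulum of skeletal muscle, where it takes part in excitation-contraction coupling. It was the only one of the 5 neighbours to rise, from a very low level. It had 4.47, 2.78 and 3.24 TPM in PRMT1 OV, against 0.737, 0.774 and 1.31 TPM in Mock, without overlap. These values stand on 57, 35 and 36 reads in PRMT1 OV and 9, 9 and 15 reads in Mock. JSRP1 rose by 1.21 on the log2 scale (SE 0.20, limma adjusted p = 0.00232). It passed the filter on low values only through the PRMT1 OV group, where it is high, so a difference was favoured by the filter. In its own bin of level, 35.3% of genes were higher and the median log2 fold change was 0.39. JSRP1 stood at 7.62 ± 1.97% of the AMH level in PRMT1 OV and at 17.9 ± 5.85% in Mock (SD, n = 3 each), without overlap. With the strand of counting not stated, transcripts that run past the end of AMH into JSRP1 cannot be told apart from JSRP1 messengers, and their part was not tested.

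OAZ1 encodes ornithine decarboxylase antizyme, which sends the first enzyme of polyamine synthesis to the proteasome. It was by far the most abundant gene of the locus, with 924, 971 and 914 TPM in PRMT1 OV, against 943, 973 and 970 TPM in Mock. The groups overlap, and the difference of -0.04 on the log2 scale (SE 0.05, limma adjusted p = 0.571) did not pass. The direction of OAZ1 depends on the scaling. It fell past the threshold after median-of-ratios scaling (-0.42, limma adjusted p = 0.00498) and rose past it under quantile normalization (0.22, limma adjusted p = 0.0116). DOT1L encodes the methyltransferase that methylates histone H3 in the bodies of transcribed genes. It had 29.5, 28.4 and 30.6 TPM in PRMT1 OV, against 29.4, 30.4 and 25.8 TPM in Mock, with overlap and a log2 difference of 0.05 (SE 0.09, limma adjusted p = 0.681). After median-of-ratios scaling DOT1L was lower past the threshold (-0.32, limma adjusted p = 0.0232). Among the 5 neighbours, then, 1 rose, 2 fell and 2 did not pass in TPM as deposited, beside 40.3% and 8.64% of all tested genes.

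AMH was set against SF3A2 in each library because both are on the same strand. The AMH level was 34.1, 36.9 and 32.5% of the SF3A2 level in PRMT1 OV, against 2.40, 2.27 and 2.01% in Mock. The mean ratio was 15.5-fold higher in PRMT1 OV, a description only, since AMH was picked for its rise. In mean TPM, AMH was 40.7 higher and SF3A2 104.0 lower in PRMT1 OV than in Mock. The table holds no value for the 629 bases between the genes and no counts of spliced junctions, so readthrough from SF3A2 into AMH was not tested.

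**Figure D2:**
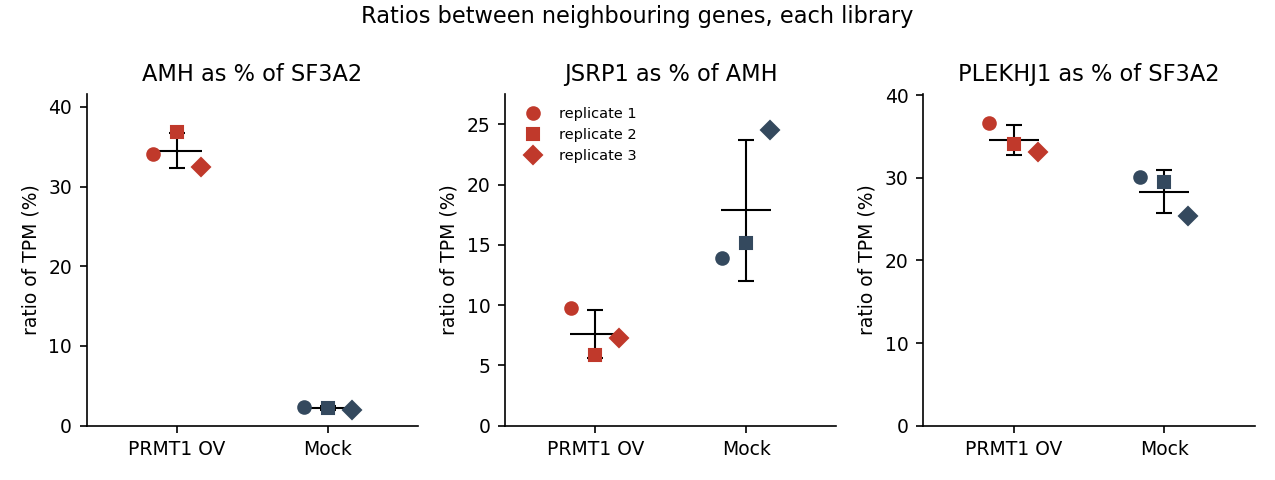
Ratio of TPM between neighbouring genes in each library (percent, linear axes from 0), with PRMT1 OV left and Mock right, the replicate marked by symbol and bars for mean and SD. AMH lies at 32.5 to 36.9% of SF3A2 in PRMT1 OV and at 2.01 to 2.40% in Mock, JSRP1 is a smaller share of AMH in PRMT1 OV, and PLEKHJ1 a slightly larger share of SF3A2.

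The arrangement of SF3A2 and AMH was compared with the same arrangement elsewhere in the genome. Of the tested protein-coding genes, 759 other than AMH start within 2 kb downstream of a protein-coding gene on the same strand. Of these, 233 rose and 130 fell, or 30.7% and 17.1%, with a median log2 fold change of 0.13 beside 0.30 for all tested genes. For 90 of them the upstream gene was at least 10 times higher in Mock, as SF3A2 was over AMH (45.2 times). Here 33 rose and 5 fell, or 36.7% and 5.56%, with a median of 0.33. Median-of-ratios scaling gave 22 and 12, beside 3409 and 3920 of 15232 tested genes. Quantile normalization gave 20 and 18, beside 3194 and 2929 of 15341. In 26 of these 90 pairs the upstream gene fell, and in 10 of those 26 the downstream gene rose, a share near the 40.3% of all tested genes that rose. Over all 582 pairs with both genes tested, the upstream gene fell in 74, and the downstream gene rose in 20 of those. The pair most like SF3A2 and AMH in this respect, chosen after its values were seen, was CCDC28B with IQCC, whose genes are 273 bases apart. IQCC averaged 17.3 TPM in PRMT1 OV and 2.36 TPM in Mock, and CCDC28B 50.9 TPM in PRMT1 OV and 74.8 TPM in Mock, with log2 fold changes of 2.47 and -0.55.

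**Figure D3:**
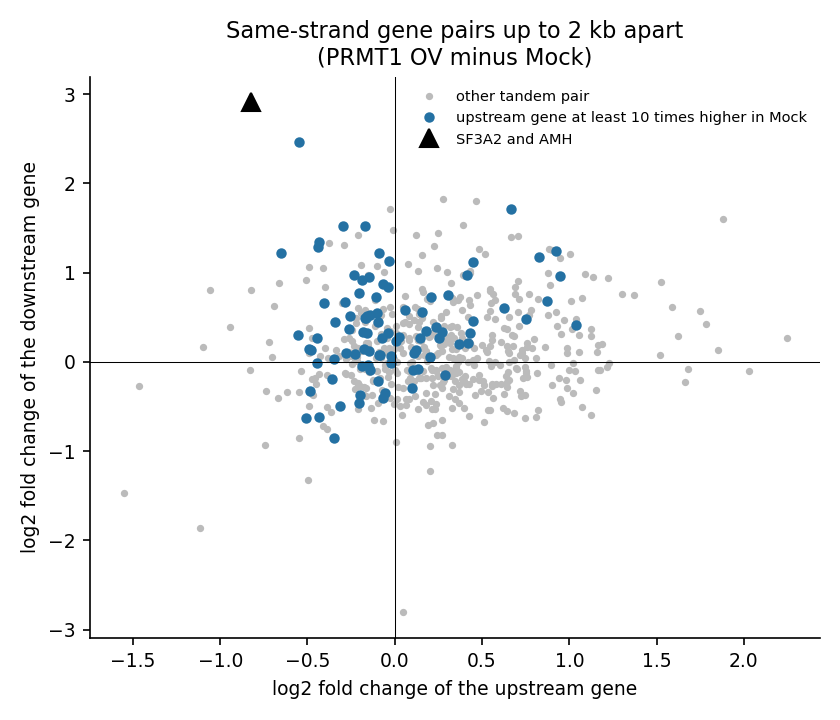
Log2 fold change (PRMT1 OV minus Mock) of the downstream gene against that of the upstream gene for same-strand protein-coding pairs up to 2 kb apart with both genes tested; blue points are pairs whose upstream gene is at least 10 times higher in Mock, and PRMT1 is left out as it lies off the scale. SF3A2 with AMH, the black triangle, lies at -0.82 and 2.91, and AMH was picked for that rise.

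A wider window of 500 kb to either side of AMH held 49 further genes, of which 22 were tested, 18 were above 0 but too low to test and 9 were listed at 0 in all libraries. Of the 22, 7 rose (31.8%), 6 fell (27.3%) and 9 did not pass, and their median log2 fold change was -0.09. Over all tested genes, 40.3% rose and 8.64% fell, with a median of 0.30. Of the 1528 tested genes richest in G and C, 25.2% rose and 21.5% fell, with a median of 0.04. AMH, SF3A2, JSRP1 and DOT1L are among these. The part of G and C content in the window was not tested. Rising and falling genes were interleaved along the window. After median-of-ratios scaling 4 rose and 13 fell, beside 3409 and 3920 of the 15232 genes tested under that scaling. MOB3A, a gene of the MOB family of kinase adaptors about 153 kb from AMH, had 10.2, 9.35 and 9.51 TPM in PRMT1 OV, against 2.96, 2.67 and 3.21 TPM in Mock (log2 fold change 1.44, SE 0.11, limma adjusted p = 0.000144). SCAMP4, which encodes a membrane protein of secretory carriers, and REXO1, which encodes an RNA exonuclease homologue, rose by 0.85 and 0.73. The small GTPase gene DIRAS1 rose by 0.70 and the intramembrane protease gene SPPL2B by 0.45. Both of these calls were lost after median-of-ratios scaling (limma adjusted p = 0.156 and 0.427), and SPPL2B was at -0.01 under quantile normalization. The DIRAS1 call was also lost without PRMT1 OV replicate 1 or 2 (limma adjusted p = 0.0548 and 0.0562), and that of SPPL2B without Mock replicate 1 or PRMT1 OV replicate 1 or 3 (limma adjusted p = 0.0550, 0.0741 and 0.0525).

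The largest fall of the window was that of AC012615.1, a long noncoding RNA gene without a symbol, chosen after its values were seen, which averaged 6.61 ± 1.21 TPM in PRMT1 OV and 22.2 ± 2.33 TPM in Mock (SD, n = 3 each; log2 fold change -1.62, SE 0.14, limma adjusted p = 0.000187). GADD45B, a stress-induced regulator of growth arrest, had 99.9, 107 and 102 TPM in PRMT1 OV, against 208, 211 and 248 TPM in Mock (log2 fold change -1.10, SE 0.08, limma adjusted p = 0.000135). BTBD2, which encodes a BTB domain protein, fell by 0.79, the zinc finger gene KLF16 by 0.57 and TIMM13, whose protein chaperones imports into mitochondria, by 0.35. ABHD17A, which encodes a depalmitoylase, fell by 0.28, a call that was lost with PRMT1 removed and the rest rescaled (limma adjusted p = 0.0892), and without Mock replicate 1 or PRMT1 OV replicate 1 (limma adjusted p = 0.0788 and 0.0689). Among tested genes of the window, the only one with a larger log2 fold change of TPM + 1 than AMH was a processed pseudogene without a symbol, AC004678.1 (chromosome 19, 2013728 to 2014656, minus strand), chosen after its values were seen. It lies inside the span of BTBD2 and had 14.5, 19.9 and 11.7 TPM in PRMT1 OV, against 0.516, 0.361 and 1.10 TPM in Mock (log2 fold change 3.30, SE 0.23, limma adjusted p = 0.000107). AC004678.1 passed the filter on low values only through the PRMT1 OV group, so a difference was favoured by the filter. It rests on 269 and 11 reads. As a processed pseudogene it may share reads with its parent gene, so its own level is uncertain.

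**Figure D4:**
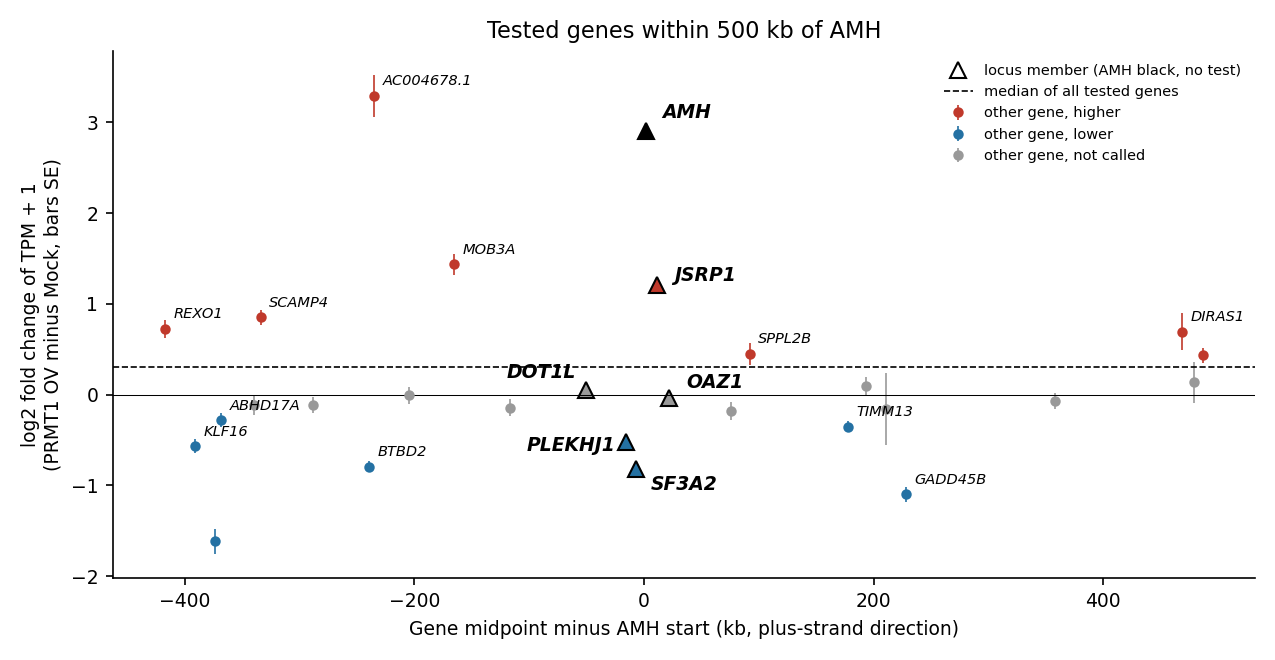
Log2 fold change (PRMT1 OV minus Mock, bars SE) of every tested gene within 500 kb of AMH against the distance of its midpoint from the AMH start in kb; triangles are the 6 genes of the locus, red and blue points rose and fell, grey points did not pass, and the dashed line is the median of all tested genes. Genes that rose and fell lie side by side, with SF3A2 and PLEKHJ1 below the line just left of AMH and JSRP1 above it just right.

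Within 50 kb of AMH, 5 more genes are annotated, and none reached the level for a test. PEAK3, a gene for a pseudokinase of the PEAK family that lies beyond OAZ1 on the minus strand, had 7, 14 and 16 reads in PRMT1 OV and 1 read in each Mock library. LINGO3, the next gene and a member of a family of leucine-rich membrane proteins, had 13, 29 and 20 reads in PRMT1 OV and 7, 4 and 3 reads in Mock. Both were thus higher in every PRMT1 OV library, at 0.416 to 2.01 TPM, though on few reads and with no test. Among tested genes, the values of the groups did not overlap for 61.4%. PEAK3 and LINGO3 lie below the filter for testing, and no such share was computed for genes below it. AC004490.1, an antisense transcript inside DOT1L that shares 764 exonic bases with it, had 18 reads in PRMT1 OV and 48 reads in Mock. MIR1227 had 1 read in all, and AC005258.1 was listed at 0.

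The receptors and signal carriers of the hormone were all expressed. Of 13 tested genes in this list, 8 rose and 1 fell, with a median log2 fold change of 0.47, beside 40.3% and 8.64% of all tested genes and their median of 0.30, which also stand beside the lists that follow. Of the 13, 5 rose and 1 fell after median-of-ratios scaling, beside 3409 and 3920 of 15232 tested genes. These counts also stand beside the lists that follow wherever that scaling is named. AMHR2, the receptor specific to the hormone, had 1.87, 2.34 and 3.24 TPM in PRMT1 OV, against 2.09, 1.38 and 2.57 TPM in Mock, with overlap (log2 fold change 0.21, limma adjusted p = 0.447). BMPR1A, a type I receptor that AMHR2 pairs with, averaged 7.62 ± 1.12 TPM in PRMT1 OV and 2.98 ± 0.12 TPM in Mock (SD, n = 3 each; log2 fold change 1.11, limma adjusted p = 0.000598). SMAD1, which carries the signal to the nucleus, rose by 0.99, its partner SMAD4 by 0.80 and the target gene ID2 by 0.50. The calls of SMAD4 under quantile normalization and of ID2 after median-of-ratios scaling were lost (limma adjusted p = 0.0759 and 0.282). That of ID2 was also lost after GC correction (limma adjusted p = 0.0525). The falling gene was the inhibitor SMAD7, which averaged 10.9 ± 0.50 TPM in PRMT1 OV and 13.7 ± 0.44 TPM in Mock (SD, n = 3 each; log2 fold change -0.31, limma adjusted p = 0.0262). Its call was lost with PRMT1 removed and the rest rescaled. There 10 genes of the list rose and 0 fell, beside 7601 and 880 of 15483 tested genes.

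Transcription factors known to act on AMH in the gonad moved in different directions. Of 16 listed, 9 were tested, 4 rose and 1 fell (median log2 fold change 0.39), with 3 and 2 after median-of-ratios scaling. SOX9, which switches AMH on in Sertoli cells, fell. It had 10.1, 12.7 and 12.5 TPM in PRMT1 OV, against 23.7, 26.7 and 28.0 TPM in Mock (log2 fold change -1.09, SE 0.12, limma adjusted p = 0.000393). GATA4, a zinc finger gene of the GATA family, rose. It had 11.6, 12.7 and 10.3 TPM in PRMT1 OV, against 5.72, 5.82 and 5.30 TPM in Mock (log2 fold change 0.92, SE 0.11, limma adjusted p = 0.000713). GATA6, of the same family, averaged 11.9 TPM in PRMT1 OV and 10.9 TPM in Mock, with overlap (log2 fold change 0.11, limma adjusted p = 0.396). Binding of either factor to the letters marked in the AMH window was not tested. WT1, which works with SF-1 in the gonad, averaged 3.53 ± 0.40 TPM in PRMT1 OV and 1.38 ± 0.19 TPM in Mock (SD, n = 3 each; log2 fold change 0.93, limma adjusted p = 0.0019). CTNNB1, the gene of beta-catenin, rose by 0.82. NR5A1, the gene of SF-1, was too low to test, with 23, 25 and 16 reads in PRMT1 OV and 11, 5 and 12 reads in Mock.

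The tested markers of the cells that normally make the hormone did not rise as a group. Of 14 Sertoli and granulosa markers, 6 stayed under 1 TPM in all libraries. Of these 6, FSHR and CST9 were listed at 0 throughout, and CYP19A1, DHH, CLDN11 and FOXL2 averaged at most 0.147 TPM in either group. The summed level of the list was 130 to 136 TPM in PRMT1 OV and 150 to 164 TPM in Mock. Most of this sum came from BEX1, CITED1 and SOX9, so it says little about the other markers. BEX1 averaged 62.6 TPM in PRMT1 OV and 73.9 TPM in Mock, and SOX9 11.7 TPM in PRMT1 OV and 26.1 TPM in Mock. NR5A1, also on the list and too low to test, had more reads in every PRMT1 OV library than in any Mock library. Of 7 tested markers, INHBB, an inhibin subunit gene, rose by 0.49 and SOX9 fell. The INHBB call was lost after median-of-ratios scaling and under quantile normalization (limma adjusted p = 0.201 and 0.656). BEX1 and CITED1, which the list also holds, had log2 fold changes of -0.24 and -0.13 that did not pass (limma adjusted p = 0.0753 and 0.184). Both were lower past the threshold after median-of-ratios scaling.

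The partners of the neighbouring genes were also listed by function. Of 9 other SF3A and SF3B complex genes, 4 rose and 1 fell (median log2 fold change 0.25), against 0 and 4 after median-of-ratios scaling. SF3B4 rose by 0.56, SF3B3 by 0.60 and PHF5A by 0.26, all lost after that scaling, where PHF5A was at -0.12 (and at -0.08 after GC correction), while SF3B2 fell by 0.31. The PHF5A call was also lost with the replicate number as a block (limma adjusted p = 0.0505) and without any single library other than Mock replicate 3 (limma adjusted p = 0.0659 to 0.116). SF3A1 and SF3A3, the other two subunits of the complex that SF3A2 belongs to, had log2 fold changes of 0.03 (not past the threshold) and 0.28 (limma adjusted p = 0.0412), so neither fell with SF3A2 in TPM as deposited. Of 17 polyamine genes, 8 rose and 5 fell (median 0.05), with 0 and 7 after that scaling. SAT1, which acetylates polyamines for export, fell to 126, 155 and 130 TPM in PRMT1 OV, against 349, 378 and 368 TPM in Mock (log2 fold change -1.41, SE 0.09, limma adjusted p = 7.52e-05). The spermidine and spermine synthase genes SRM and SMS fell by 0.52 and 0.44, and DHPS, which uses spermidine to modify a translation factor, by 0.54.

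Of 11 genes that work with DOT1L, 3 rose and 1 fell (median 0.23), with 2 and 2 after median-of-ratios scaling. AFF4, a scaffold of the super elongation complex, MLLT10 and MLLT3, which bind DOT1L, rose by 0.92, 0.65 and 0.49. NPM1, a nucleolar protein gene, fell by 0.26. The MLLT3 call was lost after median-of-ratios scaling and GC correction, where it was at -0.01, and under quantile normalization those of MLLT3, MLLT10 and NPM1, then at 0.006, were lost (limma adjusted p = 0.271, 0.153 and 0.962). That of NPM1 was lost, too, without Mock replicate 1 or PRMT1 OV replicate 1 or 3 (limma adjusted p = 0.0568, 0.0744 and 0.0661) and after removal of PRMT1 (limma adjusted p = 0.103). Of 12 muscle triad genes that belong with JSRP1, 6 were tested, 3 rose and 0 fell (median 0.51), with 2 and 1 both after median-of-ratios scaling and under quantile normalization. RYR1, CACNA1S, CASQ1 and TRDN were under 1 TPM in every library. CACNB1, a calcium channel subunit gene, averaged 4.16 ± 0.51 TPM in PRMT1 OV and 0.786 ± 0.21 TPM in Mock (SD, n = 3 each; log2 fold change 1.53, limma adjusted p = 0.00037). It, too, passed the filter only through the PRMT1 OV group, and it could not be tested with a PRMT1 OV library left out. JPH1, a gene for a protein that ties these membranes together, rose by 1.00, and the calcium pump gene ATP2A1 by 0.63. The ATP2A1 call was lost after median-of-ratios scaling and under quantile normalization (limma adjusted p = 0.0596 and 0.188).

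Among tested genes that averaged 5 TPM or more in PRMT1 OV, the 5 whose profile over the 6 libraries was nearest to that of AMH lie on other chromosomes. The share of tested genes on chromosome 19 was not computed, so this is a description only. By Euclidean distance of mean-centred log2(TPM + 1), they were POMZP3 (0.241), PRMT1P1 (0.288), OVGP1 (0.341), SNHG15 (0.375) and ZNF767P (0.437). These distances follow mainly from the difference between the groups. POMZP3 had 25.2, 21.5 and 21.4 TPM in PRMT1 OV, against 2.40, 1.98 and 2.02 TPM in Mock. PRMT1P1 is a pseudogene of PRMT1 that can take reads of the plasmid gene. The 5 neighbours of AMH, of which JSRP1 is below that level, stood farther off. JSRP1 was at 2.15, DOT1L at 3.51, OAZ1 at 3.61, PLEKHJ1 at 4.21 and SF3A2 at 4.57. No distance is given for AC004678.1 in the wider window, whose log2 fold change was 3.30, against 2.91 for AMH.

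The directions of 4 genes of the locus held under every setting that could be computed. AMH lay at a log2 fold change of 2.31 to 3.10, SF3A2 between -1.20 and -0.71, PLEKHJ1 between -0.90 and -0.42 and JSRP1 between 0.51 and 1.80. The limma adjusted p of SF3A2, PLEKHJ1 and JSRP1 was at most 0.00232, 0.007 and 0.0177 in these settings. All settings reuse the same libraries, so they are no independent check. AMH was picked for its rise, and JSRP1 had passed the filter on low values only through the PRMT1 OV group. OAZ1 and DOT1L changed sign between settings.

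**Figure D5:**
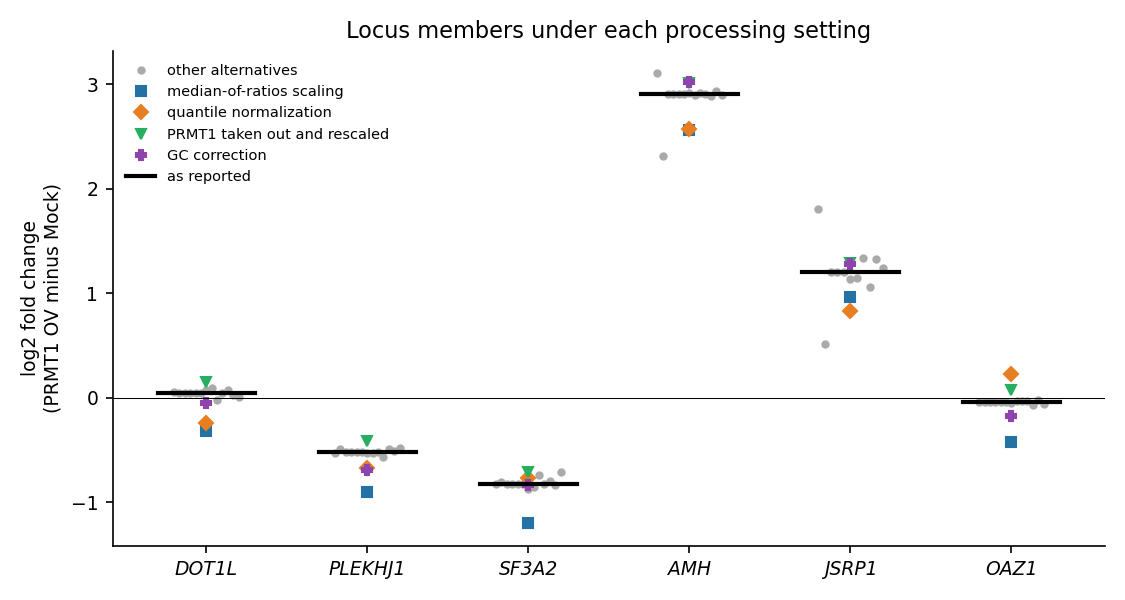
Log2 fold change (PRMT1 OV minus Mock) of the 6 genes under each processing setting, with the reported value as a black bar, the scalings and GC correction as coloured symbols and all other alternatives, including each library left out, as grey points. AMH and JSRP1 stay above 0 and SF3A2 and PLEKHJ1 below it, while OAZ1 and DOT1L lie on both sides.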

How the data were processed

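Gene expression was measured by RNA sequencing in 6 libraries. The deposited values are TPM per Ensembl gene, made by the authors; per the submitters' processing notes, Trimmomatic 0.36, STAR 2.5.2b, featureCounts, Subread 1.5.2 and GRCh38 were used, with no role or order stated. Annotation, strand setting and TPM calculation: not given in the sources used here. A table of gene names gave 40907 of 57500 identifiers a symbol, and GENCODE 29 held 56898.

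Multiplying TPM by GENCODE 29 exonic length gave whole reads, in units specific to each library, for 95.5 to 95.7% of values under 50 reads (within 0.05 of a read). Reads and depths come from these steps, and floors of 3 reads allow for counting error alone. A gene was tested if 3 or more libraries reached 1 TPM, using limma (version 3.58.1, under R 4.3.3) on log2(TPM + 1) values (eBayes with trend, no covariate), with Benjamini-Hochberg adjustment over all tested genes and a threshold of 0.05. The scale understates changes of low genes. The fit was tested on simulated data in which few genes changed. These held no shift across genes, so they cannot judge calls that depend on the scaling.

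Members and lists were chosen with earlier results of these data known. Named are the 6 members, the window genes within 50 kb, its 5 largest rises and 5 largest falls among called genes with a symbol and without overlap (genes without one were counted, and 2 named after their values were seen), up to 4 members with the smallest p of each of 7 lists (examples outside this rule are given for context), and the 5 genes nearest to AMH among those averaging at least 5 TPM in PRMT1 OV. Alternatives covered the pseudocount (0.1 or 5 TPM), the filter (none, or 5 TPM), 3 scalings, no variance trend, a replicate block, omission of each library, and other gaps between genes. GC correction and leaving out Mock replicate 3 with PRMT1 OV replicate 2, 2 libraries that stand apart from their groups, were added after seeing the data. The table held 0 columns of other samples.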

Additional observations from a re-analysis of the deposited data

How the results depend on the processing

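Scaling sets how many genes are called. Median-of-ratios scaling, quantile normalization and GC correction gave 3409, 3194 and 3612 higher genes and 3920, 2929 and 3879 lower genes, against 6190 higher and 1325 lower as reported, so that 46.5, 52.2 and 48.2% of calls were higher, against 82.4%; without Mock replicate 3 and PRMT1 OV replicate 2 that share was 71.7%. After removal of PRMT1 and rescaling 880 were lower, and without Mock replicate 3 and PRMT1 OV replicate 2 together 2082 were lower. With single libraries left out, 4661 to 5677 genes were higher and 928 to 1513 lower. Within 500 kb of AMH median-of-ratios scaling gave 4 higher and 13 lower, and single libraries left out gave 5 to 7 higher and 5 to 8 lower. Tandem downstream genes numbered 130 higher and 79 lower for gaps up to 1 kb, and 542 higher and 241 lower for gaps up to 5 kb, where more or fewer genes enter.

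AMH was at 3.10 and 2.31 with pseudocounts of 0.1 and 5 TPM, at 2.56 after median-of-ratios scaling, at 2.57 under quantile normalization, at 3.02 both with PRMT1 taken out and after GC correction, and at 2.88 to 2.93 with single libraries left out. Leaving out single libraries put SF3A2 between -0.87 and -0.74, PLEKHJ1 between -0.57 and -0.49, JSRP1 between 1.06 and 1.34, OAZ1 between -0.07 and -0.02 and DOT1L between -0.020 and 0.094. OAZ1 was at -0.42 after median-of-ratios scaling, 0.22 under quantile normalization and 0.070 with PRMT1 taken out. DOT1L was at -0.32, -0.24, -0.050 and -0.020 after median-of-ratios scaling, quantile normalization, GC correction and without Mock replicate 3. JSRP1 could not be tested with the filter at 5 TPM or without Mock replicate 3 and PRMT1 OV replicate 2 together. Among the 37 other tested genes of the window and lists named by the rule above, 38 calls were lost with the sign kept and 7 gained over all settings. A further 5 calls were lost with a change of sign. SPPL2B and NPM1 were at -0.012 and 0.0059 under quantile normalization. PHF5A was at -0.12 and -0.081 after median-of-ratios scaling and GC correction, and MLLT3 at -0.011 after GC correction. The cause was not tested.

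Same-numbered libraries deviated together with r of -0.03, 0.06 and 0.02 across genes, against -0.08 to 0.07 for other pairs of libraries. No pairing by replicate number was seen, but this check cannot exclude one. With the replicate number as a block 6275 genes were higher and 1314 lower, and SF3A2, PLEKHJ1 and JSRP1 kept their calls (limma adjusted p = 0.000698, 0.00325 and 0.00421). Depth limits JSRP1, PEAK3, LINGO3 and NR5A1, which rest on few reads in Mock.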
